A study of Homo sapiens with 23 samples.

Results

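Argonaute (AGO) proteins are the partners of microRNAs (miRNAs). An AGO protein loaded with a miRNA pairs through the seed bases of that miRNA with target transcripts, most often in the 3′-untranslated region (3′-UTR), and recruits a TNRC6 protein, which brings in deadenylation and decapping enzymes. Human cells have the paralogs *AGO1*, *AGO2*, *AGO3* and *AGO4*, of which AGO2 also cleaves fully paired RNA.

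The data compare *AGO1/2* double knockout HCT116 cells with wild-type HCT116 cells, an established epithelial line from a human colorectal carcinoma. Of the 23 samples in the series, 15 are RNAseq samples, and the 6 described here are 3 wild-type (WT) and 3 *AGO1/2* knockout samples, chosen by their labels. The other RNAseq samples are 3 each of *AGO1*, *AGO2* and *AGO1/2/3* knockout cells. They entered the fit, and their values are given beside those of the double knockout. The *AGO2* knockout files alone carry another quantification label in their headers, so that differences involving that line cannot be told apart from a difference in quantification. All lines were labelled as passage 12 to 18, were untreated and grew in McCoy's 5A medium with serum. The knockouts were made by CRISPR editing of HCT116 cells, and each genotype was 1 edited line, so that the missing proteins cannot be told apart from other properties of that line. The 3 samples of a genotype are stated to be biological replicates, and the p-values measure the spread among them.

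Steady state RNA levels were measured by sequencing total RNA after removal of ribosomal RNA. The 6 libraries held 28294976 to 32381721 estimated counts per sample. WT sample 2 stood somewhat apart from WT samples 1 and 3: the SD over genes of its deviation from the group mean was 0.34 on the log2 scale, against 0.20 and 0.27 for the other WT samples and 0.18 to 0.23 for the knockout samples. Of 9 epithelial markers, 7 averaged 1 CPM (counts scaled to a library of 1e6) or more and *CDX1* was at 0 in all 6 libraries. Their summed level was 1971 to 2095 CPM in WT and 2152 to 2757 CPM in the knockout. The markers did not move together. Of the 7 tested in the fit described below, *KRT8* and *KRT19* were called higher and *EPCAM* and *CDH1* lower, and the median log2 fold change was -0.31. Fibroblast markers summed to 24.4 to 33.6 CPM in WT and 13.0 to 16.8 CPM in the knockout, and endothelial markers to 2.5 to 3.6 CPM over all 6 libraries. Of the leukocyte markers, *MS4A1* and *TYROBP* were at 0 in all 6 libraries, and the summed level of all 9 was 3.0 to 6.4 CPM in WT and 11.8 to 15.7 CPM in the knockout.

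Of 22823 genes tested, 1908 were called higher in the *AGO1/2* knockout cells (8.36%) and 1899 lower (8.32%) at an adjusted p of 0.05 or less in edgeR's quasi-likelihood test. With scaling by total counts alone, which moved the median of all genes to -0.08, 1394 were higher and 2585 lower. In the fit reported, the median log2 fold change was 0.01, and the median standard error of a gene was 0.20. At least 2-fold, 563 genes were higher and 747 lower. The 3 knockout values lay all above or all below the 3 WT values in 29.8% of the genes tested. Values are given as normalized counts per gene, that is, estimated counts scaled to the mean library size, and log2 fold changes are knockout over WT from the same fit.

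The targeted genes were examined first. *AGO1* (chr1:35869808-35930532, hg38, plus strand) had 4595, 3586 and 4870 normalized counts in WT and 1180, 1258 and 1217 in *AGO1/2* knockout cells. The groups were far apart, and the knockout mean was 28% of WT (log2 fold change -1.84, SE 0.12, adjusted p = 1.27e-07). *AGO2* (chr8:140520156-140635633, minus strand) had 12592, 15273 and 12698 normalized counts in WT and 10662, 11038 and 12119 in the knockout. Every knockout value was below every WT value, but the difference did not pass the test (log2 fold change -0.26, SE 0.10, adjusted p = 0.092). It passed with scaling by total counts alone and with the DESeq2 test. RNA levels are no measure of whether protein was made. *AGO3* stood at 3738 ± 531 normalized counts in WT and 3728 ± 283 in the knockout (SD, n = 3), with overlapping groups. *AGO4* stood at 834 ± 111 and 990 ± 226 (log2 fold change 0.25, SE 0.23, adjusted p = 0.52).

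Genes of the TNRC6 partners of AGO were higher. *TNRC6B*, a scaffold that binds AGO and recruits deadenylases, went from 6117, 6255 and 6731 normalized counts in WT to 8383, 9749 and 8999 in the knockout (log2 fold change 0.51, SE 0.11, adjusted p = 0.0052). Its paralogs *TNRC6A* and *TNRC6C* were called with log2 fold changes of 0.53 and 0.37, but these calls were lost under 14 and 7 of the 24 refits tried, respectively. *DICER1*, which cuts miRNA precursors and carries well known let-7 sites, had 3172, 3449 and 3525 normalized counts in WT and 5622, 5422 and 5457 in the knockout. The knockout values were close together and 1.63-fold higher on average (log2 fold change 0.70, SE 0.10, adjusted p = 0.0003). In the single knockouts *DICER1* stood at log2 fold changes of 0.33 (*AGO1*) and 0.83 (*AGO2*), and in *AGO1/2/3* knockout cells at 1.47. The *AGO1/2/3* line was higher than the *AGO1/2* line for this gene in a test of that difference (adjusted p = 8.67e-05). Among 25 tested genes of miRNA processing and turnover, *DICER1* and *ADAR*, the editor of double-stranded RNA (log2 fold change 0.38), were called. The share called higher was 8%, near the 8.36% of all genes tested, and none was called lower. In the list for deadenylation, decapping and P-bodies, 4 of 40 were called higher (10%, near the 8.36% of all genes tested). A further 6 were lower (15%, against 8.32%). The count higher was 2 without WT sample 1 or 2 or without knockout sample 1 or 2. The count lower ran from 4 to 10 over the refits. The decapping enzyme *DCP2* (log2 fold change 0.57) and *TOB1* (0.64) were higher, whereas the deadenylase subunit *PAN2* (-1.06) and *ZFP36*, which destabilizes AU-rich transcripts (-1.26), were lower. Both falls were called in the other lines too. In the *AGO1*, *AGO2* and *AGO1/2/3* lines *PAN2* stood at -1.40, -1.11 and -0.99 and *ZFP36* at -1.33, -1.18 and -2.21. Neither gene differed between the *AGO1/2* line and a single knockout in the test (lowest adjusted p = 0.23). Of the qPCR normalizers used in the study, *HPRT1* stood at 1492 ± 402 and 1342 ± 145 normalized counts and was not called. *SNRNP200* was 12683 ± 2121 in WT and 16371 ± 1034 in the knockout and passed the threshold narrowly (log2 fold change 0.37, adjusted p = 0.041), a call lost in 17 of the 24 refits.

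**Figure D1:**
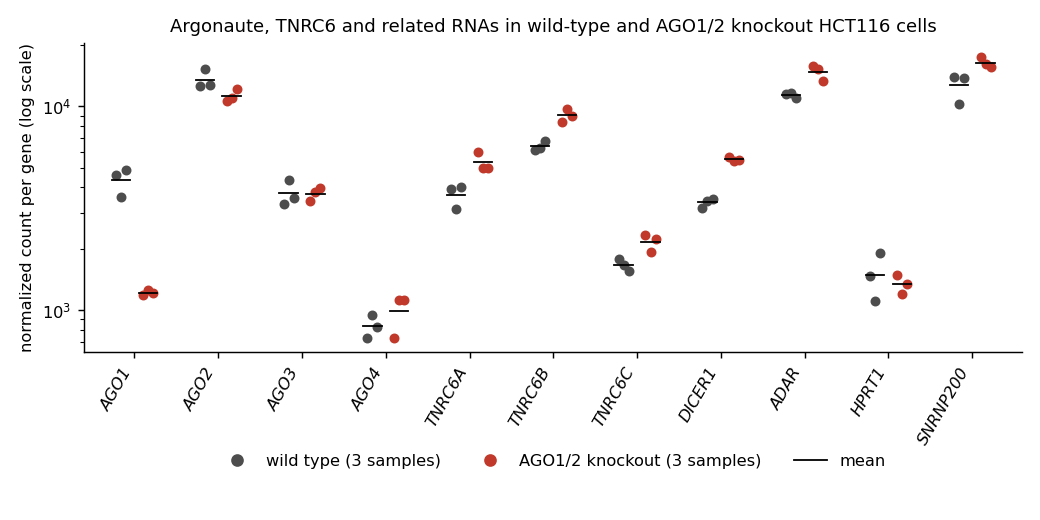
Normalized counts (vertical axis, log scale) of Argonaute, TNRC6 and related genes (horizontal axis), with 1 point per sample, wild type in grey and AGO1/2 knockout in red, and bars at the means. AGO1 fell to 28% of wild type, AGO3 values overlapped, and DICER1 was 1.63-fold higher.

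The largest rises outside chromosome arm 8q included genes with almost no RNA in WT cells. *MYBPH*, a myosin-binding protein of muscle (chr1:203167811-203175826), had 3.13, 0 and 0 normalized counts in WT and 262, 620 and 282 in the knockout. With only 3 counts in the WT group, the ratio of the rates was 374 (95% exact interval 128 to 1818, counting error only). *LYZ*, which encodes lysozyme, had 5.21, 5.30 and 2.01 normalized counts in WT and 69.2, 131 and 118 in the knockout, a 25.4-fold higher mean (log2 fold change 4.63, SE 0.37, adjusted p = 9.71e-07). *LYZ* is also one of the 9 leukocyte markers, of which 4 were tested. *CD68* was called higher too, at 1.31, and none of the 4 was called lower. *MS4A1* and *TYROBP* were at 0 in all 6 libraries. *DCLK1*, a doublecortin-like kinase known as a marker of intestinal tuft cells, rose from 44.8, 127 and 91.2 to 1081, 1337 and 1678 normalized counts. Its log2 fold change of 3.96 (SE 0.26) stood beside -3.72 in *AGO2* knockout cells and 7.0 in *AGO1/2/3* knockout cells. *FAT2*, an atypical cadherin, rose from 11.4 ± 4.6 to 164 ± 14 normalized counts, and the ephrin ligand *EFNA5* from 33.2 ± 17.8 to 292 ± 55 (SD, n = 3). The remaining rises of this rank were the interferon-stimulated genes *OAS1*, *IFI6* and *IFI27*, the serine protease *PRSS33*, the hemoglobin subunit *HBA2*, *SYTL5* and *SERTAD4*, with log2 fold changes of 2.92 to 3.91. In *AGO1/2/3* knockout cells these remaining genes stood at 0.47 (*IFI27*) to 6.61 (*SERTAD4*). *MYBPH*, *LYZ*, *FAT2* and *EFNA5* stood there at 8.64, 5.87, 3.89 and 5.49. The groups did not overlap for any of the 12, as the rule for naming them required.

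The largest falls outside 8q left some transcripts at a few counts. *ANXA10*, an annexin of gastric epithelium (chr4:168092537-168187736), had 316, 384 and 410 normalized counts in WT and 2.13, 1.15 and 3.67 in the knockout (adjusted p = 2.09e-09). No knockout library held more than 3 counts, and with 3 counts per library as the floor the level was at least 108-fold lower. In *AGO1* knockout cells the same transcript stood above WT, with a log2 fold change of 2.20. In *AGO2* and *AGO1/2/3* knockout cells *ANXA10* was below WT as well, at -8.01 and -8.84. The difference between the *AGO1/2* and *AGO2* lines did not pass the test (adjusted p = 0.53). *LRP1B*, a very large lipoprotein receptor gene, fell from 193, 295 and 146 normalized counts to 1.06, 1.15 and 0. Only 2 counts remained in the knockout group, and the WT rate was 276 times that of the knockout (95% exact interval 76.0 to 2280). *SLC1A3*, a glutamate and aspartate transporter, fell from 458, 415 and 597 to 9.58, 9.17 and 3.67, and *ANK3*, which encodes ankyrin-G, from 909, 694 and 809 to 37.3, 35.6 and 25.7. *RHOBTB1*, *GRB14*, *ABCA12*, *CNTN1* and *COBLL1* fell with log2 fold changes of -5.53 to -4.31. *HMCN1* kept 8 counts in the knockout group, and its WT rate was 33.4 times higher (95% exact interval 16.7 to 78.1). For *RHOBTB1*, *GRB14*, *ANK3* and *COBLL1* the log2 fold changes in the *AGO1* and *AGO2* single knockouts lay between -0.15 and 0.35. The double knockout was lower than each single knockout in the test of the difference (adjusted p of 3.24e-07 or less in all 8 tests). In *AGO1/2/3* knockout cells these genes stood at -5.03, -6.94, -4.34 and -3.95. Their differences from the *AGO1/2* line did not pass the test (lowest adjusted p = 0.12). Every fall named in this paragraph was below WT in *AGO1/2/3* knockout cells, at -9.59 (*SPRR2D*) to -2.60 (*HMCN1*). The spread was wide for *LURAP1L*, at 379, 1411 and 58.2 normalized counts in WT, and for *SPRR2D*, at 37.5, 246 and 7.02 in WT against 0 in all 3 knockout samples. The WT mean of *SPRR2D* was at least 28.2-fold higher, taking 3 counts per knockout library as the floor. Its call was lost without any 1 knockout sample and in the DESeq2 test.

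**Figure D2:**
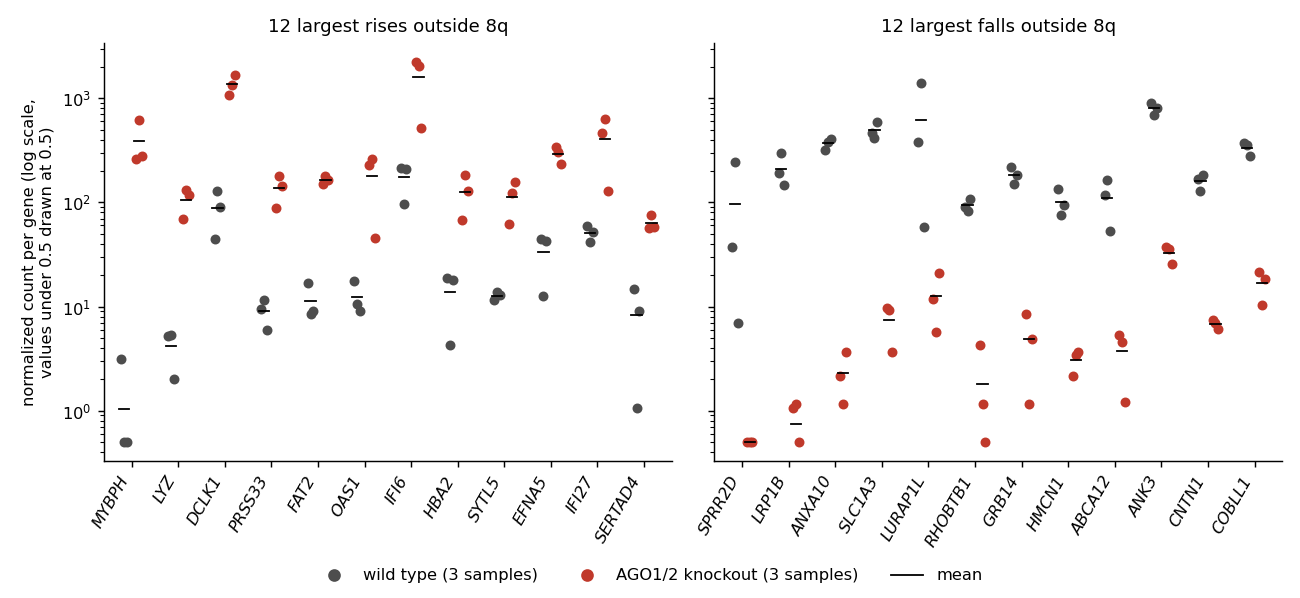
Normalized counts (vertical axis, log scale, values under 0.5 drawn at 0.5) of the 12 protein-coding genes with the largest rises (left) and falls (right) outside 8q, with 1 point per sample and bars at the means. No gene has overlapping groups, and the highest knockout value among the falls is that of ANK3, at 37.3.

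Genes of chromosome arm 8q shifted as a block. Taking genes that averaged 1 CPM or more, 194 of 358 on 8q were called lower (54.2%), against 9.14% of 15823 elsewhere. The median log2 fold change of 8q genes was -0.52, with medians of -0.52, -0.53 and -0.47 in the 3 knockout samples and 0.01, 0.00 and 0.04 in the WT samples, each WT sample set against the other two. The 41 other arms with at least 20 genes had medians of -0.06 (16p) to 0.17 (21p), and 8p stood at 0.06. The single knockouts showed no such shift, with 8q medians of -0.01 (*AGO1*) and 0.00 (*AGO2*), and *AGO1/2/3* knockout cells stood at -0.47. Of all 1899 genes called lower, 218 lay on 8q (11.5%), and 1893 genes were higher and 1681 lower outside it.

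The shift did not cover the whole arm. In steps of 10 Mb (hg38), the median was 0.02 from 50 to 60 Mb and 0.09 from 60 to 70 Mb, then -0.47 from 70 to 80 Mb and between -0.71 and -0.52 in every later step up to the end of the arm. Within the step where it began, the 5 genes from 70 to 72 Mb had a median of 0.07 with none called, and 9 of the 11 genes from 72 to 74 Mb were called lower with a median of -0.56. Taken as 2 stretches, a division made after these values were seen, 3 of 53 genes before 70 Mb and 191 of 305 genes beyond it were called lower. The median beyond 70 Mb was -0.59 (0.67-fold). In *AGO1/2/3* knockout cells the same stretches had medians of 0.11 and -0.60. In those cells the step from 130 to 140 Mb stood at 0.11, and the other steps from 70 Mb on at -0.82 to -0.41. A shared shift of neighbouring genes and a change of each gene on its own cannot be told apart for a single gene of the shifted stretch, and named genes of 8q are marked as such. *AGO2* itself lies in the step from 140 to 150 Mb, where the median was -0.69.

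Single 8q genes went well past the block. *MAL2*, a protein of apical transport in epithelial cells, had 6701, 6757 and 5381 normalized counts in WT and 70.3, 66.5 and 84.5 in the knockout, 1.17% of WT (log2 fold change -6.41, SE 0.18, adjusted p = 1.58e-11). *GRHL2*, a transcription factor of epithelial identity, fell from 1218, 910 and 1041 to 68.1, 60.8 and 72.3 (log2 fold change -3.98), and *ZNF704* from 2252 ± 935 to 29.5 ± 4.4. *PAG1* fell as well (-2.99). In *AGO1* knockout cells, whose 8q median was -0.01, *MAL2* (-1.53) and *GRHL2* (-1.13) were called lower. *ZNF704* (-0.71) and *PAG1* (0.25) were not called there. *MYC*, the proto-oncogene, had 9964, 7515 and 10430 normalized counts in WT and 4527, 5279 and 5646 in the knockout (log2 fold change -0.85, SE 0.14, adjusted p = 0.00061). Its step, from 120 to 130 Mb, had a median of -0.56, and *MYC* stood at 0.13 and 0.19 in the *AGO1* and *AGO2* single knockouts. Of the 8q genes averaging 1 CPM or more, 9 were called higher, and the protein-coding genes with the largest changes among them were *MYBL1* (627, 242 and 618 to 1858, 1517 and 1849 normalized counts), *SGK3* (log2 fold change 1.0), *PARP10* (1.37) and *TP53INP1* (0.57). The call of *PARP10* was lost without WT sample 1 or knockout sample 2, and that of *TP53INP1* in 6 of 24 refits, among them those without any 1 WT sample. *MYBL1* and *SGK3* both lie before 70 Mb.

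**Figure D3:**
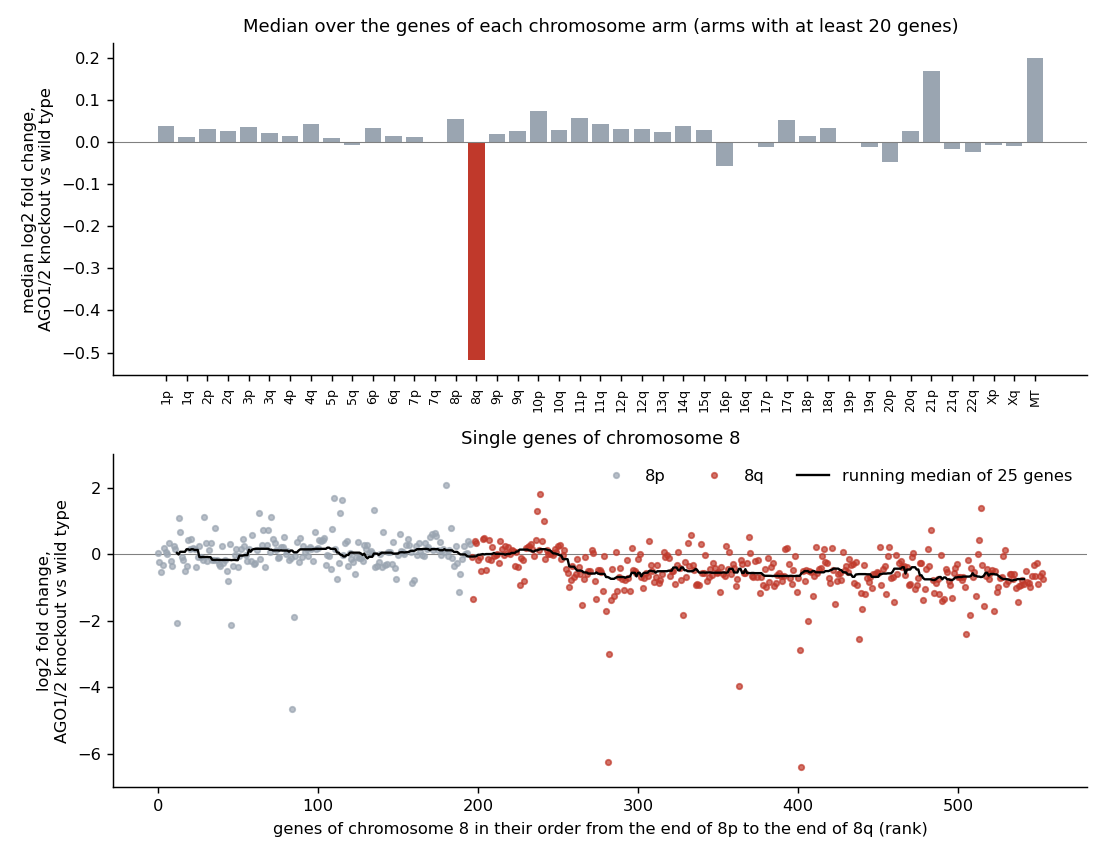
Top, median log2 fold change of AGO1/2 knockout over wild type (vertical axis) for each chromosome arm with at least 20 genes, with 8q in red at -0.52 and mitochondrial genes (MT, 0.20) shown for comparison. Bottom, log2 fold changes of single genes of chromosome 8 in their order along the chromosome (horizontal axis, rank), 8p in grey and 8q in red, with the running median of 25 genes in black, which leaves 0 part of the way along 8q.

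Interferon-stimulated genes had the largest share of members called higher among the lists with at least 10 tested members. These genes encode sensors and effectors against viral RNA and are switched on by type I interferon. Of 50 tested, 31 were called higher and none lower, and the median log2 fold change was 1.02, against 8.36% called higher and a median of 0.01 over all genes tested. *OAS1*, a sensor of double-stranded RNA (chr12:112905856-112933219), had 17.7, 10.6 and 9.02 normalized counts in WT and 228, 259 and 45.3 in the knockout (log2 fold change 3.83, SE 0.58, adjusted p = 0.00035). *IFI6* had 216, 97.5 and 208 in WT and 2241, 2040 and 522 in the knockout. *ISG15*, a ubiquitin-like modifier, had 589, 457 and 616 in WT and 2103, 1822 and 780 in the knockout. In all 3 genes knockout sample 3 was the lowest of its group and still above every WT sample. The list median in knockout samples 1, 2 and 3 was 1.09, 1.25 and 0.48. Without sample 3, 31 genes were called, and without sample 2, 28.

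The sensors *RIGI* (log2 fold change 1.47), *IFIH1* (1.14) and *TLR3* (1.79), the transcription factors *IRF7* (1.20) and *IRF9* (1.32), and the effectors *IFIT1* (2.83), *BST2* (2.5) and *EIF2AK2* (0.74) were all called. Some members were not. *STAT2*, *IRF3*, *CGAS*, *STING1* and *IFI44L* had log2 fold changes of -0.23 to 0.14, and *IFITM3* of 0.21 with 3906 ± 556 and 4518 ± 651 normalized counts. Against the *AGO1* line, 33 of the 50 were higher in *AGO1/2* knockout cells (11.6% of all genes were), and against the *AGO2* line also 33 (12.8%). *AGO1/2/3* knockout cells had a list median of 0.49 over WT. Compared directly, 16 of the 50 were lower in the *AGO1/2/3* than in the *AGO1/2* line (10.1% of all genes were) and 1 was higher (11.9%). *IFI27*, for example, stood at 2.99 in the double and 0.47 in the triple knockout, and that difference passed the threshold (adjusted p = 0.00038). Of the MHC class I presentation list, 6 of 17 were higher (35.3%, against 8.36% of all genes tested) and none lower. Among the 6 were the peptide-trimming enzymes *ERAP1* (1.14) and *ERAP2* (1.25). Without WT sample 2 or without knockout sample 2, 3 genes of this list were higher.

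**Figure D4:**
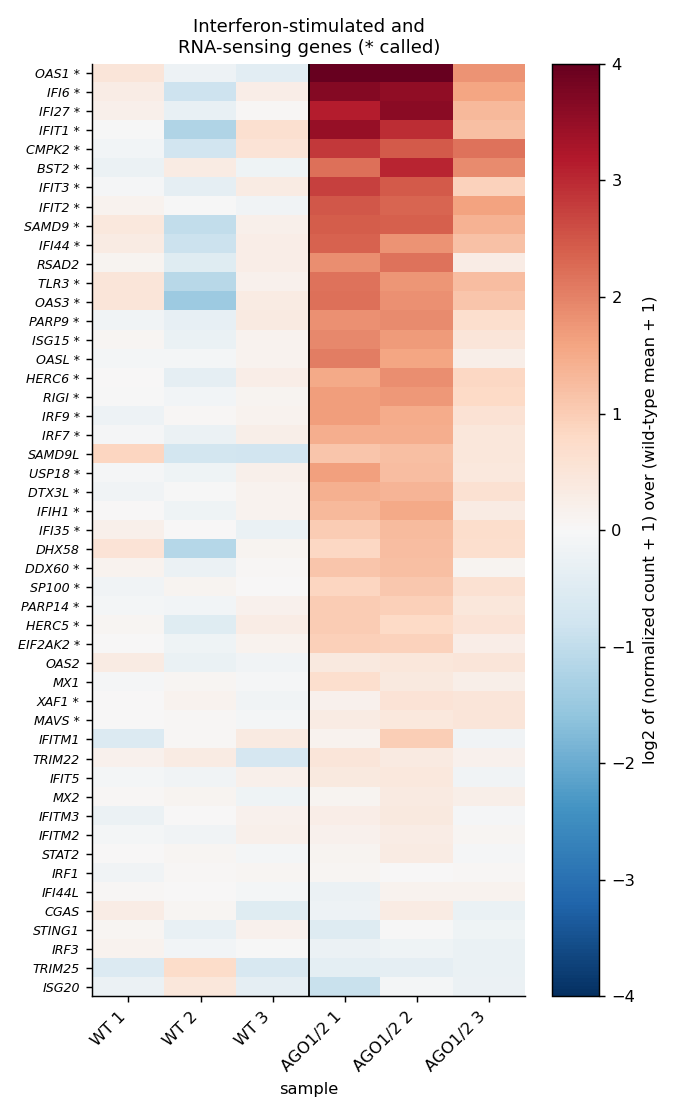
Of the 50 interferon-stimulated and RNA-sensing genes tested, 49 (rows, ordered by fold change, called genes starred) in the 6 samples (columns), coloured by log2 of normalized count plus 1 over the wild-type mean plus 1, with the color scale ending at 4. The upper rows are red in all 3 knockout samples and paler in sample 3.

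Cholesterol and fatty acid genes moved mostly upward. Of 50 tested, 19 were higher (38%, against 8.36% of all genes tested) and 1 lower (2%, against 8.32%), with a median of 0.57. *SCD*, which makes monounsaturated fatty acids, rose from 46302, 28153 and 58016 normalized counts to 81827, 141318 and 99239 (log2 fold change 1.28, SE 0.23, adjusted p = 0.0014). The synthetic enzymes *HMGCS1* (1.02) and *FASN* (1.24) and the regulator *SREBF1* (0.56) were also higher. The cholesterol exporters *ABCA1* and *ABCG1*, which belong to the response to sterol excess, rose as well, *ABCA1* from 176, 160 and 179 to 771, 1046 and 874. *SQLE*, on 8q (-0.32), and *SREBF2* (0.32) did not pass. The only called fall was *INSIG2*, a retention factor of the sterol sensor. In WT samples 1, 2 and 3, each against the other two, the list stood at 0.13, -0.63 and 0.47. In the knockout samples, against the mean of all 3 WT samples, it stood at 0.61, 0.65 and 0.34. The references of the 2 groups differ, so these values do not show whether WT sample 3 and knockout sample 3 overlapped. The count of genes called higher ranged from 12 to 28 when 1 of the 6 samples was left out (14 without WT sample 2, 28 without WT sample 3 and 12 without knockout sample 2) and was 10 with the 6 samples alone.

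Cytosolic ribosomal protein genes moved the other way. Of 79 tested, 26 were lower (32.9%, against 8.32% of all genes tested) and none higher, with a median of -0.29. The largest falls were in the 8q genes *RPL7* (41954, 39003 and 49578 to 20602, 21144 and 24152 normalized counts, log2 fold change -0.99), *RPL30* (-0.82) and *RPL8* (-0.67). Outside 8q the changes were small, such as *RPL3* at -0.48 and *RPS6* at -0.45, and the median there was -0.28. The count was sensitive to samples and scaling: 4 genes passed with the 6 samples alone, 5 without knockout sample 1 or sample 2, 7 without WT sample 3 and 56 with scaling by total counts. Compared directly, 76 of the 79 were lower in *AGO1/2/3* than in *AGO1/2* knockout cells (10.1% of all genes were). In *AGO1/2* knockout cells, 73 were lower than in *AGO1* knockout cells (7.96% of all genes were). Of 67 nucleolar genes of ribosome assembly, 7 were lower (10.4%, near the 8.32% of all genes tested). Of 26 snoRNA host genes, 7 were lower (26.9%). Both counts were 3 without knockout sample 2. The *MYC*, MAX and MXD network had 6 of 15 lower (40%), *MYC* and *PVT1* on 8q among them, and none higher.

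Genes of epithelial junctions and polarity were mostly called lower or not called, and mesenchymal genes split. Of 51 junction and polarity genes, 17 were lower (33.3%, against 8.32% of all genes), 3 of them on 8q, and 5 higher (9.80%, near the 8.36% of all genes). The median was -0.11, and -0.19 without WT sample 2, -0.17 without WT sample 1 or knockout sample 3 and -0.20 with scaling by total counts. *CDH1*, which encodes E-cadherin, fell from 2809, 4460 and 2481 normalized counts to 901, 982 and 1203 (log2 fold change -1.66, SE 0.24, adjusted p = 0.00023). *EPCAM* fell to 53% of WT (-0.92), the tight junction claudin *CLDN7* changed by -1.71, and the epithelial splicing regulator *ESRP1*, on 8q, by -1.85. The desmosomal cadherins *DSC3* (1.21) and *DSC2* (0.79) and the pore-forming claudin *CLDN2* (1.88) rose. The simple-epithelium keratin *KRT8* rose 1.69-fold, from 21310, 19809 and 22888 to 40489.5, 36943 and 30893. Of the 54 mesenchymal and extracellular matrix genes, 15 were higher (27.8%) and 8 lower (14.8%). The count lower was 5 without knockout sample 1. The median of 0.11 became 0.02 without WT sample 1, 0.05 without WT sample 2 and 0.03 with scaling by total counts. *VIM*, the intermediate filament of mesenchymal cells, rose from 151, 105 and 161 to 819, 717 and 856 normalized counts (log2 fold change 2.52). *ZEB1*, a repressor of *CDH1* with known miR-200 sites, rose from 294 ± 29 to 880 ± 98 (1.58). *SPARC*, a matrix glycoprotein, rose to 124, 411 and 509 from 47.9, 41.3 and 79.2. *SNAI2* (on 8q, -2.17, at most 11.7 normalized counts in any sample), *CCN1* (-1.61), *COL1A1* (-1.03) and *COL7A1* (-1.98) were lower, and *FN1* (0.29) and *CDH2* (-0.26) did not pass. *VIM* and *SPARC* were below WT in *AGO2* knockout cells (-0.76 and -3.08) and above it in *AGO1/2/3* knockout cells (3.64 and 4.94).

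Signaling genes changed in both directions. Their counts are to be read against 8.36% higher and 8.32% lower over all genes tested. Of 41 genes of the EGF receptor family, its ligands and ERK feedback, 12 were lower (29.3%) and 2 higher (4.88%). Without knockout sample 1, 6 were lower. The immediate-early gene *FOS* fell from 6062, 3614 and 6113 normalized counts to 1251, 369 and 532 (log2 fold change -2.87, SE 0.66, adjusted p = 0.0072), the phosphatases *DUSP1* and *DUSP2* changed by -1.69 and -1.71, and *JUN* by -0.96. The ligand *EGF* rose from 18.8, 9.54 and 15.0 to 99.03, 97.5 and 78.4. *EGFR* (0.41) did not pass. In the TGF-beta and BMP list, 10 of 41 were higher (24.4%) and 6 lower (14.6%). The ligand *TGFB2* rose 7.05-fold (36.5, 40.3 and 29.1 to 220, 224 and 303), the inhibitors *SMAD6* and *SMAD7* by 1.66 and 1.53 on the log2 scale and the receptor *TGFBR2* by 0.66, whereas the activin receptor *ACVR2A* fell (-1.47). Of 35 YAP and TEAD targets, 11 were higher (31.4%) and 4 lower (11.4%). The rises were led by *TGFB2* and the phosphatase *PTPN14*, at 4209, 3761 and 4040 against 11558, 12143 and 11978. Of 42 WNT targets and feedback genes, 11 were higher (26.2%) and 5 lower (11.9%), with *AXIN2* at 1.5, and 7 were higher without knockout sample 1. Of 29 NF-kappa-B chemokines and feedback genes, 7 were lower (24.1%) and 2 higher (6.90%). *ICAM1* fell from 200, 280 and 326 to 33.0, 26.4 and 20.8, and *LCN2* from 47.9, 594 and 27.1 to 13.8, 12.6 and 7.35. Without WT sample 2 the log2 fold change of *LCN2* was -1.72, against -4.27 with all samples.

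Cell cycle machinery showed few calls. Of 62 genes of DNA replication 1 was lower (*RRM2B*, on 8q, a call lost without WT sample 2 and in other refits) and none higher. Of 72 mitosis genes 1 was higher (*CDC25B*, 0.58) and none lower, and of 46 replication-dependent histone genes none was called. WT sample 2 stood apart in these lists, with medians of -1.30 (DNA replication), -1.0 (histones) and -0.91 (mitosis) against the other WT samples. The replication, histone and mitosis medians of the knockout were 0.18, 0.22 and 0.32, and -0.11, -0.13 and 0.05 without that sample. With that WT spread, few calls do not show that these genes were unchanged. Among G1 regulators, *CCND1*, which encodes cyclin D1 and is a known target of the miR-16 and miR-17 families, rose 2.18-fold, from 18283, 16176 and 17677 to 37939, 37685 and 38061 normalized counts (log2 fold change 1.12, SE 0.15, adjusted p = 9.32e-05). *RB1* rose (0.65). Of 38 death receptor and apoptosis genes, 7 were higher (18.4%, against 8.36% of all genes tested) and 3 lower (7.89%, near the 8.32% of all genes tested). *BCL2* fell from 192, 151 and 139 to 43.7, 28.7 and 22.1. Clustered HOX genes had 11 of 31 higher (35.5%) and 1 lower (3.23%), with *HOXB4*, *HOXB6* and *HOXB8* at 1.06, 1.17 and 1.08. The S100 family had 7 of 12 higher (58.3%), such as *S100A10* (1.34), and *S100A14* lower (-3.01), with 4 higher without knockout sample 2. The annexins had 6 of 13 higher (46.2%), or 3 without WT sample 1, and *ANXA10* lower. Of oxidative phosphorylation subunits, 7 of 76 were lower (9.21%, near the 8.32% of all genes tested), 4 of them on 8q, and none was higher. The count lower was 16 without WT sample 2 and 3 without WT sample 3. Of 49 glycolysis and hypoxia genes, 7 were lower (14.3%) and 3 higher (6.12%). Without WT sample 3, 9 were higher, and the count lower was 10 without WT sample 2 and 3 without knockout sample 2. The 234 tested zinc finger genes of chromosome 19 had 5 higher (2.14%) and 12 lower (5.13%), both below the shares over all genes, and 2 were higher without WT sample 2 or without knockout sample 1 or 2.

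**Figure D5:**
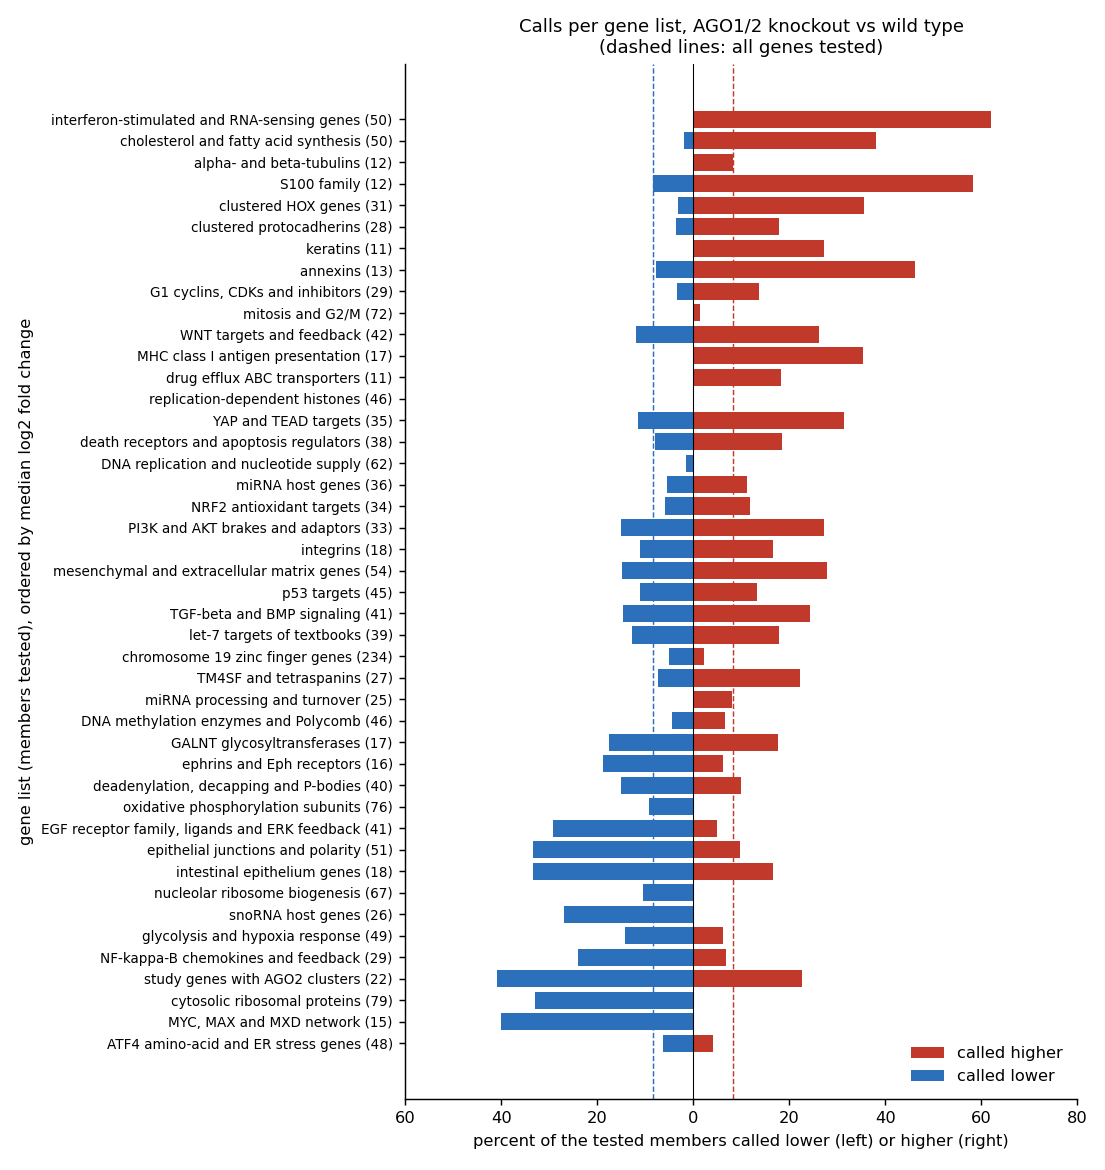
Percent of the tested members of each gene list with at least 10 tested members (rows, members tested in parentheses, ordered by median log2 fold change) that were called higher (right, red) or lower (left, blue) in AGO1/2 knockout cells. Dashed lines mark 8.36% higher and 8.32% lower over all genes tested. The interferon, cholesterol, S100 and annexin lists reach furthest to the right, and the MYC network, the study's selected genes, the junction, intestinal and ribosomal protein lists to the left.

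The study selected 22 genes with strong AGO2 binding in their 3′-UTRs for follow-up. Their stated criterion was binding, and whether RNA levels played a part in the choice is not given in the sources used here. Of the 22, 5 were higher (22.7%) and 9 lower (40.9%), against 8.36% and 8.32% of all genes tested. The rises were *TMEM245* (3264, 2556 and 3688 to 6631, 6605 and 6917 normalized counts, log2 fold change 1.08), *PHLPP2* (1.03), *CYP2S1* (0.69), *ENTPD7* (0.68) and *TM2D2* (0.65). The falls included *MAL2* and *MYC*, both on 8q, and *GALNT3*, an O-glycosylation enzyme (368, 385 and 362 to 20.2, 33.3 and 28.2, log2 fold change -3.77), *S100A14*, *RGS16*, an inhibitor of G-protein signaling (-2.85), *CEMIP* (-1.43), *TMEM184A* (-0.77), *PRSS8* (-0.66) and *EFNA1* (-0.48). *IL17RD*, *MSMO1* and *DDIT4* missed the threshold with log2 fold changes of 0.61, 0.74 and -1.55. *IL17RD* had 1086 normalized counts in knockout sample 1, within the WT range, and 1944 and 2062 in samples 2 and 3.

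Transcripts that could pair with miRNA seeds were compared as groups, as a description. The longest annotated 3′-UTR of each gene was searched for the reverse complement of miRNA bases 2 to 8 of 20 families. The mature sequences below (RefSeq, hg38) belong to families discussed next, with the seed in capitals, which is the part read against the 3′-UTRs.
let-7a (chr9:94175962-94175983, plus strand): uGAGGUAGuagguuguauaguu
miR-17 (chr13:91350618-91350640, plus strand): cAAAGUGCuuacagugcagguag
miR-19b (chr13:91351245-91351267, plus strand): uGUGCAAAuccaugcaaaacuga
miR-200c (chr12:6963742-6963764, plus strand): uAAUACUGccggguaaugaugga

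The searched sites, on the strand of the transcript only, were CTACCTC for let-7, GCACTTT for miR-17, TTTGCAC for miR-19 and CAGTATT for miR-200bc. They occurred in 12.2%, 26.6%, 16.1% and 19.6% of the 14610 3′-UTRs of tested protein-coding genes, of which 10.6% were called higher and 10.1% lower with a median log2 fold change of 0.01. The 3889 genes with a miR-17 family site had a median of 0.04, with 13.8% higher and 7.23% lower. The 2353 genes with a miR-19 site had a median of 0.05, with 15.4% higher and 9.09% lower. For miR-200bc the values were 0.04, 14.3% and 10.1%, and for let-7 0.04, 12.3% and 9.97%. Over all 20 families the medians ran from 0.03 to 0.05, and the SD of a family's median over the 3 knockout samples was 0.01 to 0.04. The 2518 genes without a site of any family had a median of -0.02, with 6.83% higher and 11.8% lower. Their median 3′-UTR length was 334.5 bases, against 2697 to 3562 bases in the family groups, so site content and 3′-UTR length moved together and their parts were not tested. In *AGO1/2/3* knockout cells the medians for miR-17, miR-19, miR-200bc and let-7 were 0.14, 0.17, 0.18 and 0.12, against 0.05 over all genes searched, and for genes without a site -0.14. Of 39 textbook let-7 targets, 7 were higher (17.9%) and 5 lower (12.8%), against 10.6% and 10.1% of the protein-coding genes searched. *IGF2BP1* (1.19) and *PBX3* (1.0) rose, while *ACVR1C* (-2.29) and *E2F5*, on 8q (-1.07), fell. *CTDSPL*, host gene of a miR-26a copy, rose from 1300, 755 and 1142 to 3295, 3733 and 3619.

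Small non-coding RNAs gave the largest rises outside the protein-coding genes. *RNU12*, the U12 snRNA of the minor spliceosome, had 27.1, 61.5 and 47.1 normalized counts in WT and 1997, 1887 and 1706 in the knockout (log2 fold change 5.36, SE 0.30, adjusted p = 2.54e-08). *SNORA53* rose from 15.6, 15.9 and 27.1 to 412, 357 and 578, and *SNORA64* and *SNORA3A*, both with at most 6.02 normalized counts in any WT sample, to 75.9 or more in each knockout sample. For *SNORA64*, with 3 counts in the WT group, the ratio of the rates was 78.0 (95% exact interval 26.3 to 381). In the *AGO1* and *AGO1/2/3* lines all 4 were called higher as well. In the *AGO2* line *SNORA64* (1.38, SE 1.40, adjusted p = 0.51) and *SNORA3A* (2.07, SE 1.10, adjusted p = 0.19) did not pass. The log2 fold change of *RNU12* was 5.45, 4.34 and 3.61 and that of *SNORA53* 4.92, 3.91 and 4.71 in the *AGO1*, *AGO2* and *AGO1/2/3* lines. Across 194 tested snoRNAs, a class singled out after its values were seen, 43 were higher and 9 lower, with a median of 0.35. Over all genes tested, 8.36% were higher and 8.32% lower. The class median was 0.64 in *AGO1* knockout cells, 0.14 in the *AGO2* line and -0.11 in the *AGO1/2/3* line. Among long non-coding RNAs, 161 of 4810 were higher and 240 lower, both smaller shares than over all genes tested. *LINC01405* fell from 154, 168 and 189.5 to 4.26, 14.9 and 18.4, and *MSRB3-AS1*, *LNCAROD* and the unnamed transcript ENSG00000261026 changed by -3.49, -3.13 and -4.65.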

How the data were processed

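RNAseq of HCT116 cells was analysed for 3 wild-type and 3 *AGO1/2* knockout samples. The deposited values are estimated counts per gene: per the study's methods, the authors made stranded libraries from ribosomal RNA-depleted total RNA, filtered paired-end reads, aligned them to hg38 and quantified genes with Salmon. The submitters' processing notes name STAR 2.5.3a and Salmon 0.11.0, whereas the study's methods name other versions of both, and which made the files is not settled. Per the file headers, the *AGO2* knockout files carry the label quasi_quant and all others quant, so a different Salmon mode for that line cannot be told apart from genotype in comparisons with it. The fit without that line called 1691 genes higher and 1657 lower. Estimated counts were rounded to whole numbers. Of 57875 genes listed, 57418 were kept, since chromosome Y genes were left out, and 57167 of the listed genes were found in GENCODE v44 (hg38), which gave names, positions and 3′-UTRs.

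All 15 RNAseq samples were fitted in edgeR 4.0.16 (R 4.3.3) with TMM scaling, the default filter on low counts and the quasi-likelihood test, Benjamini-Hochberg adjustment over all 22823 genes and a threshold of 0.05. The script was tested on simulated data first. Named genes were the AGO and TNRC6 genes, *DICER1* and the qPCR normalizers, the study's 22 genes, the 12 protein-coding genes with the largest rises and falls outside 8q at a mean of at least 1 CPM with groups that did not overlap, 4 each way on 8q and among other RNA types, and up to 3 each way per gene list. Other list members in the text were named after their values were seen. The members and lists were chosen with earlier results of these data known. Alternatives included DESeq2 1.42.0, other scalings and filters, the 6 samples alone, a replicate block and leaving out each sample. Same-numbered wild-type and knockout samples had deviations correlated at 0.20, 0.15 and -0.31, so the numbers were not taken to pair samples. Intervals and floors cover counting error only. eCLIP samples were not analysed here. Some genes are not reported here by name.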

Additional observations from a re-analysis of the deposited data

Results flagged for a closer look

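The following named genes were called in the *AGO1/2* knockout and called in the opposite direction in the *AGO2* single knockout, and the difference between the lines was called as well (edgeR, adjusted p of 9.5e-05 or less). Each pair gives the log2 fold change over wild type in the *AGO1/2* line and in the *AGO2* line: *DCLK1* (3.96 and -3.72), *PRSS33* (3.91 and -2.96), *SLC1A3* (-5.99 and 1.11), *CEACAM1* (1.44 and -0.70), *SOX9* (0.61 and -0.49), *HNF4A* (0.56 and -0.76), *SPARC* (2.62 and -3.08), *VIM* (2.52 and -0.76), *COL17A1* (2.35 and -1.72), *ITGB4* (1.44 and -1.27), *FZD1* (-0.71 and 0.95), *UTP23* (-0.89 and 0.49), *TNFSF4* (1.31 and -0.83), *ABCA1* (2.38 and -1.0), *GALNT14* (-0.79 and 0.50), *TM4SF18* (2.88 and -2.33), *TSPAN1* (1.82 and -0.80), *EPCAM* (-0.92 and 0.32). Against the *AGO1* single knockout the same held (adjusted p of 3.63e-05 or less), with the *AGO1/2* and then the *AGO1* value for *PRSS33* (3.91 and -3.39), *ANXA10* (-7.26 and 2.20), *MSRB3-AS1* (-3.49 and 1.95), *LNCAROD* (-3.13 and 1.09), *DSC3* (1.21 and -1.31), *ITGB8* (1.26 and -1.42), *EGF* (2.65 and -3.18), *IRS1* (-1.35 and 0.63), *BOP1* (-1.01 and 0.55), *RRM2B* (-0.29 and 0.81), *CDC25B* (0.58 and -0.53), *ICAM1* (-3.31 and 0.77), *ABCA1* (2.38 and -1.33), *S100A5* (1.17 and -1.90), *TM4SF18* (2.88 and -2.07), *TSPAN1* (1.82 and -1.45), *CMTM6* (0.54 and -0.32), *RPL8* (-0.67 and 0.37), *ZNF550* (-2.08 and 0.96), *ZNF426* (-1.04 and 0.77). Against the *AGO1/2/3* line it held (adjusted p of 0.000424 or less) for *FZD1* (-0.71 and 1.81), *ASAP1* (-0.61 and 1.31), *PCGF3* (-0.37 and 0.34), *CD68* (1.31 and -1.09). *UTP23*, *BOP1*, *RRM2B*, *RPL8* and *ASAP1* lie on 8q within the shifted stretch. The step of *ASAP1*, from 130 to 140 Mb, had a median of -0.53 in the *AGO1/2* line and 0.11 in the *AGO1/2/3* line. The call of *RRM2B* in the *AGO1/2* line was lost in 9 of 24 refits, among them those without wild-type sample 2 or 3 or without any 1 *AGO1/2* knockout sample. The headers of the *AGO2* knockout files carry another quantification label than those of the other lines, and its part in differences from that line was not tested. All lines were compared with the same 3 wild-type samples, and each genotype is 1 line.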

How the results depend on the processing

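Of the refits, fitting only the 6 samples compared changed the counts most, to 926 genes called higher and 1178 lower, and to 44.4% of 8q genes lower. A 2-fold requirement left 563 higher and 747 lower. Scaling by total counts gave an 8q median of -0.60 and moved the median of all genes from 0.01 to -0.08, and of its calls 35% were higher, against 50.1% in the fit reported. DESeq2 called 1915 higher and 2058 lower. Leaving out 1 sample gave 1202 (without *AGO1/2* knockout sample 2) to 1953 genes higher, 1356 to 2011 lower, 45.3% to 55.6% of 8q genes lower and an 8q median of -0.55 to -0.51. No named gene changed direction while called, and across the named genes and refits 316 values lost their call, 17 gained one and 5256 stayed on the same side. Adding the replicate number as a replicate block gave 1831 higher and 1754 lower. Since the numbers did not pair the samples, this block is not read as a test of the effect. The 2-group fit has few samples, each genotype is 1 line, and the depth limits genes under about 1 CPM, whose values near 0 rest on a few counts.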

Other observations

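Several further gene groups held calls in both directions, to be read against the 8.36% higher and 8.32% lower over all genes tested. Among 33 brakes and adaptors of PI3K and AKT signaling, 9 were higher and 5 lower, and 5 were higher without *AGO1/2* knockout sample 2 and 6 without wild-type sample 1 or 2 or knockout sample 3. The adaptor *IRS1*, which links insulin receptors to PI3K, changed by -1.35 on the log2 scale, the regulatory subunit *PIK3R1* by -1.10 and the mTOR inhibitor *DEPTOR*, which lies on 8q within the shifted stretch, by -2.0. *PIK3R3* rose (0.88). Of 45 p53 targets, 6 were higher (13.3%) and 5 lower (11.1%), near the shares of all genes, and the counts were not stable: 3 were higher without wild-type sample 1 or knockout sample 2, and 3 were lower without wild-type sample 2 or knockout sample 1 or 2. The kinase *PLK2* rose (1.38) and its relative *PLK3* fell (-1.19).

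Of 18 tested genes of intestinal epithelium, 6 were lower and 3 higher, and 3 were lower without knockout sample 2. The epithelial ETS factors *EHF* and *ELF3* fell by 1.48 and 1.02, while *SOX9* (0.61), *HNF4A* (0.56) and the adhesion molecule *CEACAM1* (1.44) rose. Among 18 integrin genes, *ITGB4*, the laminin-binding subunit of hemidesmosomes (1.44), *ITGB8* (1.26) and *ITGB3* (2.04) were higher, and the collagen-binding *ITGA1* (-1.96) and *ITGA2* (-1.15) were lower. Of 16 ephrins and Eph receptors, *EFNA5* was higher and *EFNB2* (-1.73), *EPHA1* (-1.39) and *EFNA1* were lower. The clustered protocadherins had 5 of 28 higher (17.9%) and 1 lower, with *PCDHB14* at 1.35. Of the O-glycosylation enzymes of the GALNT family, *GALNT4* rose (1.01) and *GALNT3* and *GALNT13* (-1.43) fell. The multidrug efflux pump *ABCB1* rose as well (1.68). Genes of the ATF4 amino acid and ER stress response had 2 of 48 higher and 3 lower. The count lower was 18 without wild-type sample 3, 13 without knockout sample 3, 2 without wild-type sample 2 and 1 without wild-type sample 1 or knockout sample 1 or 2. The list median was -0.48, and -0.18 without wild-type sample 2, and the wild-type samples, each against the other two, spanned -1.03 to 0.92.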
